A study of Mus musculus with 219 samples.

Results

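The 9 genes described here code for core factors of nucleotide excision repair: Ddb1, Ddb2, Xpc, Rad23b and Cetn2 of damage recognition, Xpa of damage verification, and Ercc5, Ercc1 and Ercc4 of the incisions. They were taken by symbol from the 32285 genes of both count tables, and all 9 were found. The embryos were B6C3F1xCD1: oocytes of B6C3F1 females received a CD1 sperm head by intracytoplasmic sperm injection (ICSI) at 1 of 3 sites relative to the meiotic (MII) spindle. In contralateral ICSI the sperm head was placed opposite the spindle, in ipsilateral ICSI (isolateral in the labels) beside it, and in equatorial ICSI between both. No group was left uninjected. The study took equatorial ICSI as its main reference, since there the needle's path misses the spindle. Its wider question was the first cleavage and how sister blastomeres differ, and needle damage to the spindle was a possibility to discount beforehand. Here the 9 genes were compared between sites. The sites differ both in needle path and in where the sperm head lay, so these cannot be told apart. The samples were single blastomeres of 2-cell embryos separated on the day after ICSI, twin blastocysts grown from separated sister blastomeres, and intact blastocysts from embryos that were not bisected. Sister libraries were added, giving 55 2-cell embryos (21 contralateral, 21 ipsilateral and 13 equatorial), 19 twin pairs (6, 7 and 6) and 31 intact blastocysts (11, 8 and 12). The replicate was the embryo throughout. Embryo sex was not given in the labels.

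Nucleotide excision repair removes bulky, helix-distorting lesions such as those made by ultraviolet light. Lesions are found across the genome by UV-DDB (Ddb1 with Ddb2) and by the Xpc complex (Xpc with Rad23b and Cetn2), or by a stalled RNA polymerase. TFIIH then opens the helix, Xpa and RPA hold and check the open structure, Ercc5 (XPG) cuts on the 3′ side of the lesion and the Ercc1 and Ercc4 (XPF) dimer on the 5′ side, and polymerases fill the gap. The early embryo starts with transcripts stored by the oocyte, and in the mouse the 2-cell stage is when these stores are cleared while embryonic transcription becomes active.

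Ddb1, Rad23b and Cetn2 were the members that differed between ICSI sites in 2-cell embryos, so their promoter sequences are shown first. Each is 300 bases of RefSeq sequence (GRCm38.p6), from 250 before to 50 after RefSeq's start of the gene, written 5′ to 3′ on the gene's strand. This start can differ from that of the GENCODE annotation used for the gene positions, and the Ddb1 window lies wholly after the GENCODE start. They lie at chr19:10605347-10605646 (plus strand, Ddb1), chr4:55349792-55350091 (plus strand, Rad23b) and chrX:72918295-72918594 (minus strand, Cetn2). Capitals mark matches on either strand to the CCAAT box, spelled CCAAT, and to the GC box, spelled GGGCGG, and no matches of the first overlapped those of the second.
Ddb1: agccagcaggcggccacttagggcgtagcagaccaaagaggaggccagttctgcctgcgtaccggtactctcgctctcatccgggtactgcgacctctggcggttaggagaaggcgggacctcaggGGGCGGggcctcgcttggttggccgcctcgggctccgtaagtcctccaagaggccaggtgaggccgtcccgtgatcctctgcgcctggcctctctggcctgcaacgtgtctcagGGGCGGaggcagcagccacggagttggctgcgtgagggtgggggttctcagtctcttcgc
Rad23b: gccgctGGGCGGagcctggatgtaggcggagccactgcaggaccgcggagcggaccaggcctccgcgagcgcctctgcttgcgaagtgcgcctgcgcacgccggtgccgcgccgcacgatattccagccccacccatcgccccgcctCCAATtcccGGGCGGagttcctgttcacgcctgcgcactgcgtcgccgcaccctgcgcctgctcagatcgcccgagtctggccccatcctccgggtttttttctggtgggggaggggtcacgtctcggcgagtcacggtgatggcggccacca
Cetn2: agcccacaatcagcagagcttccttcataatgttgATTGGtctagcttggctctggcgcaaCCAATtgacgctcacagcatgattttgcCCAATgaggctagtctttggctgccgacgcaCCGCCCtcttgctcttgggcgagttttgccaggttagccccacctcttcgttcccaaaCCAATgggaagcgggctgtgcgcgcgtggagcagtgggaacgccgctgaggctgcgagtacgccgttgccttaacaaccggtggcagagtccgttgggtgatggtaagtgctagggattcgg
The Ddb1 promoter held 2 GC boxes and no CCAAT box. The Rad23b promoter held 2 GC boxes and 1 CCAAT box. The Cetn2 promoter held 4 CCAAT boxes and 1 GC box. Promoters were matched for 7 of the 9 genes, and a CCAAT box stood in 5 and a GC box in 4 of these 7. Among all 32851 promoters of this length, 37.4% held a CCAAT box and 35.7% a GC box. The TATA box (TATAAA), the E-box (CACGTG) and the cAMP response element (TGACGTCA) were searched likewise and had no match in the 7 promoters, where 13.6%, 7.15% and 1.79% of all promoters had one. These matches describe letters and say nothing of factor binding.

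In the GENCODE M21 annotation (GRCm38), the recognition genes lie at chr19:10605327-10629819 (Ddb1), chr2:91211572-91236982 (Ddb2), chr6:91489305-91515888 (Xpc), chr4:55350043-55392237 (Rad23b) and chrX:72913532-72918411 (Cetn2). Xpa lies at chr4:46155347-46196311, and the incision genes at chr1:44147744-44181260 (Ercc5), chr7:19344778-19356524 (Ercc1) and chr16:13109684-13150617 (Ercc4). The values below count reads over the exons of each gene.

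Depth differed by site in the 2-cell embryos. The total count per embryo ranged from 1255481 to 3976094, with medians of 2675357 in contralateral, 3050508 in ipsilateral and 2179479 in equatorial embryos. The median number of detected genes per blastomere, taken as the mean of both sisters, was 12073, 12103 and 11393 in the same order. The median mitochondrial share of counts was 1.61%, 1.497% and 1.24%. Of the equatorial embryos, 11 of 13 were on plate 1, against 18 of 21 contralateral and 13 of 21 ipsilateral embryos, and plate was a term of every 2-cell fit. Twin pairs held 1676976 to 3095134 counts and intact blastocysts 234099 to 1254428. All 8 oocyte-derived markers had counts at each site of the 2-cell embryos. Their summed level, in CPM (counts scaled to a fixed library total), was 3558 to 4893 in contralateral, 3427 to 4752 in ipsilateral and 3203 to 4634 in equatorial embryos. The 10 cumulus cell markers summed to 1.41 to 58.8 CPM, 4.59 to 59.3 and 9.29 to 59.7, with Inha at 0 in all 55 embryos. The 6 trophectoderm markers had counts in twin and intact blastocysts of each site.

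In 2-cell embryos the members ranged from abundant to sparse. Levels are compared between genes per length, as TPM (reads per length, scaled to a fixed total; mean ± SD, n = 55 embryos). Rad23b, which stabilises Xpc, had 161 ± 45.4 TPM. Ddb1, the scaffold of UV-DDB and of the Cul4 ubiquitin ligase, had 137 ± 47.6. Cetn2, a centrin shared between the Xpc complex and the centrosome, had 122.1 ± 53.4. These 3 were the highest, and their means differed by less than their SDs. The incision genes Ercc4 and Ercc5 followed with 58.5 ± 23.8 and 58.2 ± 32.1 TPM, and Ddb2, the lesion-binding partner of Ddb1, had 37.2 ± 16.6. Ercc1, Xpa and Xpc were the lowest, with 14.7 ± 13.2, 14.9 ± 14.2 and 5.93 ± 5.98 TPM. Neighbours in the order of median levels overlapped in their mean ± SD bands at every step. The Xpc protein is the lesion sensor of its complex, and its transcript was the lowest of the 9.

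**Figure D1:**
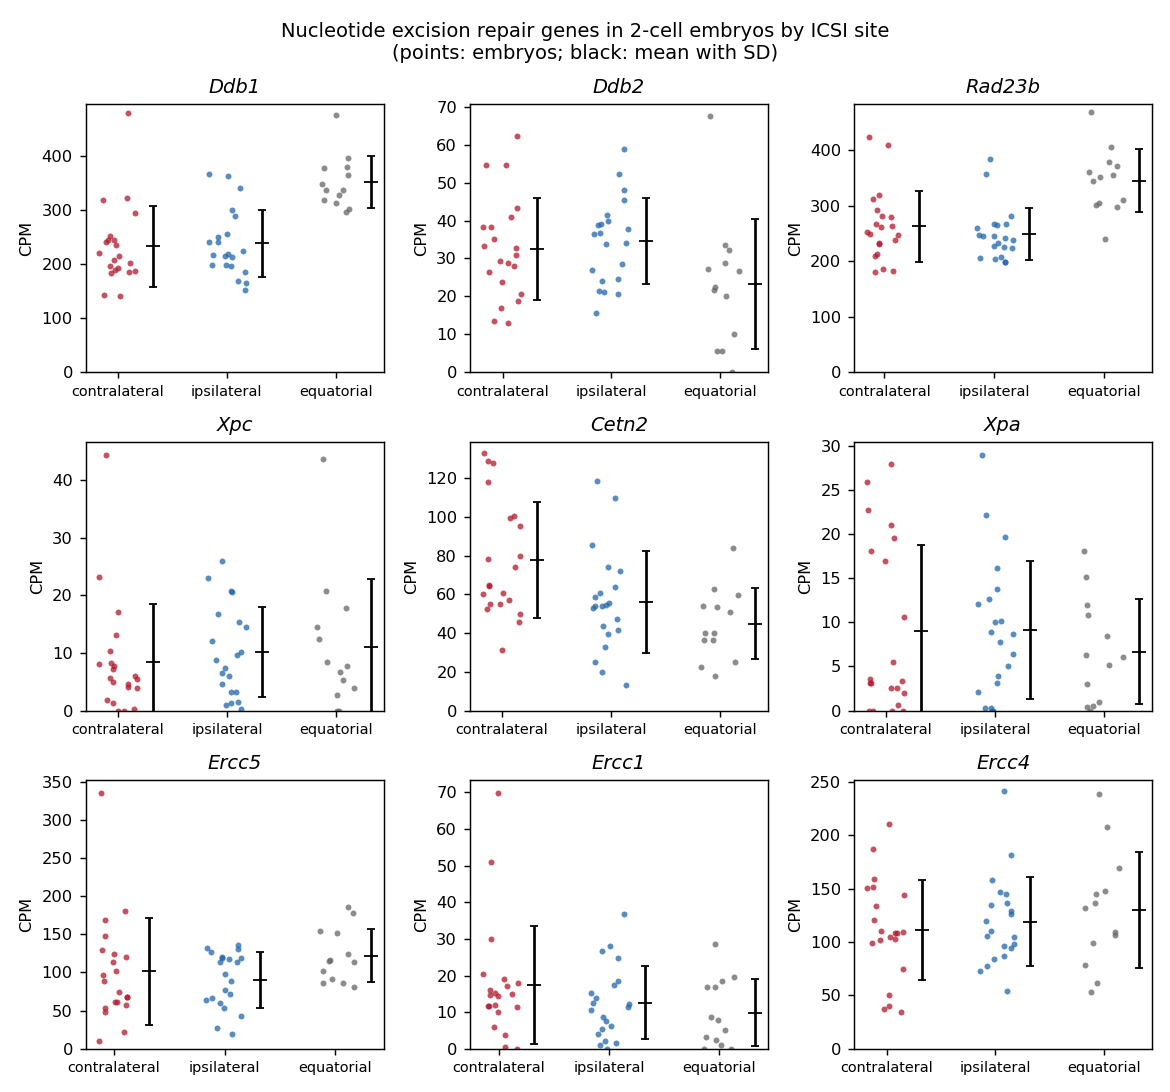
CPM of the 9 genes in 55 2-cell embryos (points) by ICSI site, with mean and SD in black; each panel has its own axis from 0, where SD bars that would pass below 0 end. The means of Ddb1 and Rad23b are lower and that of Cetn2 is higher in contralateral than in equatorial embryos, and the ranges of all 9 genes overlap across sites.

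In contralateral against equatorial 2-cell embryos, Ddb1 and Rad23b were lower and Cetn2 was higher after contralateral ICSI. These 3 of 9 members passed an adjusted p of 0.05 (edgeR quasi-likelihood test, adjusted over 13141 genes), where 13.2% of all genes tested did, 7.12% higher and 6.06% lower. The median log2 fold change of the 9 members was -0.23, against 0.00 for all genes. The called members thus lay on both sides of 0.

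Ddb1 ranged from 295.6 to 474.7 CPM in the 13 equatorial embryos, with a median of 335.9. In contralateral embryos it ranged from 141.2 to 478.9 CPM, with a median of 213.7. Of the 21 contralateral embryos, 18 lay below the lowest equatorial embryo, while 1 lay above the highest, so the groups overlapped through few embryos. The fitted difference was -0.60 on the log2 scale (SE 0.12, adjusted p = 0.000209, edgeR), or 0.66-fold (95% interval 0.56 to 0.77). Without any single embryo, it stayed between -0.67 and -0.53.

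Rad23b had a median of 352.5 CPM in equatorial embryos (range 239.6 to 469.9). Its median in contralateral embryos was 253.3 CPM (range 181.3 to 423.6). Here 19 of 21 contralateral embryos lay below the equatorial median and 8 below the lowest equatorial embryo. The difference was -0.40 (SE 0.10, adjusted p = 0.00527, edgeR), or 0.76-fold (95% interval 0.66 to 0.87).

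Cetn2 went the other way. Its median was 40.01 CPM in equatorial (range 17.6 to 83.8) and 65.02 CPM in contralateral embryos (range 31.3 to 132.7). Of the contralateral embryos, 20 of 21 lay above the equatorial median and 7 above the highest equatorial embryo. The difference was 0.79 (SE 0.23, adjusted p = 0.0140, edgeR), or 1.73-fold (95% interval 1.26 to 2.37). Cetn2 is X-linked. The contralateral median was 76.2 CPM on plate 1 (18 embryos) and 52.2 on plate 2 (3 embryos), and the equatorial medians were 40.01 (11 embryos) and 39.3 (2 embryos).

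The other recognition genes did not pass. Ddb2 had medians of 30.8 CPM in contralateral and 22.5 CPM in equatorial embryos, with a log2 difference of 0.52 (SE 0.30, adjusted p = 0.281). Xpc had medians of 5.66 and 7.80 CPM and was at 0 in 2 embryos of each group. The transcript of Xpa, the verification gene, had medians of 3.33 and 6.06 CPM, while its fitted difference of 0.38 had an SE of 0.70. Median and fit thus pointed in opposite directions for Xpa, which was at 0 in 4 contralateral embryos and 1 equatorial embryo.

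None of the incision genes passed either. Ercc5 had medians of 89.3 CPM in contralateral and 114.7 CPM in equatorial embryos (log2 difference -0.28, SE 0.25, adjusted p = 0.541). A single contralateral embryo held 335.6 CPM of Ercc5 and also the highest Ddb1 value of all 55. Ercc4 had medians of 108.5 and 132.1 CPM (-0.23, SE 0.20, adjusted p = 0.521). Ercc1 had medians of 14.6 and 7.74 CPM (0.82, SE 0.57, adjusted p = 0.389), and its 95% interval ran from 0.82- to 3.83-fold.

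In ipsilateral against equatorial 2-cell embryos, Ddb1 and Rad23b were again lower, and no member was higher. These 2 of 9 members passed, where 6.65% of all genes did, 3.43% higher and 3.22% lower. This comparison shares its 13 equatorial embryos with the contralateral one. Ddb1 ranged from 151.1 to 366.7 CPM in ipsilateral embryos, with a median of 218.6, and 17 of 21 lay below the lowest equatorial embryo. The difference was -0.67 (SE 0.12, adjusted p = 0.000334, edgeR), or 0.63-fold (95% interval 0.54 to 0.74). Rad23b ranged from 199.6 to 384.9 CPM with a median of 242.0, and 10 of 21 embryos lay below the lowest equatorial embryo. Its difference was -0.50 (SE 0.11, adjusted p = 0.00205, edgeR), or 0.71-fold (95% interval 0.61 to 0.82).

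Cetn2 had an ipsilateral median of 54.1 CPM, and 16 of 21 embryos lay above the equatorial median, but its difference of 0.34 (SE 0.24) had an adjusted p of 0.465. Ddb2 had a median of 36.4 CPM and a difference of 0.56 (SE 0.30, adjusted p = 0.300), and 17 of 21 ipsilateral embryos lay above the equatorial median. Ercc5 had a median of 98.5 CPM and a difference of -0.48 (SE 0.26, adjusted p = 0.309), and 9 of 21 lay below the lowest equatorial embryo. The differences of Xpa, Ercc1 and Ercc4 were 0.52, 0.32 and -0.17, with SEs of 0.71, 0.56 and 0.20. Xpc had a median of 8.72 CPM in ipsilateral and 7.80 CPM in equatorial embryos, while its fitted difference was -0.035 (SE 0.62).

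Between the polar sites, no member and no gene passed (0 of 9 and 0% of 13141, edgeR), with 1 member and 555 genes at an unadjusted p under 0.05. DESeq2 called 0 members and 0.475% of genes. The ratio of contralateral to ipsilateral was 1.04-fold for Ddb1 (95% interval 0.90 to 1.21) and 1.07-fold for Rad23b (0.94 to 1.22). Cetn2 was the member under 0.05 without adjustment, at 1.37-fold (1.03 to 1.82, unadjusted p = 0.034), with an adjusted p of 1 over all genes.

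On plate 1 alone (18 contralateral, 13 ipsilateral and 11 equatorial embryos) the same directions were found. These embryos are part of the 55 above. Over all genes, 16.9% passed there in the contralateral and 8.61% in the ipsilateral comparison. The contralateral differences were -0.60 for Ddb1, -0.39 for Rad23b and 0.86 for Cetn2 (edgeR adjusted p = 0.000456, 0.00631 and 0.006035). The ipsilateral ones were -0.73 for Ddb1 and -0.54 for Rad23b (edgeR adjusted p = 0.000486 and 0.00164). Plate 2 held only 2 equatorial embryos and was not tested alone.

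Depth moved with ICSI site, and part of the calls moved with it. With library size and detected genes added to the fit, 9.08% of all genes passed in the contralateral comparison, 5.51% higher and 3.57% lower. There, Ddb1 (-0.46, SE 0.11, adjusted p = 0.00403) and Cetn2 (0.88, SE 0.25, adjusted p = 0.0148) passed while Rad23b did not (-0.25, SE 0.10, adjusted p = 0.110). In the ipsilateral comparison 0.464% of all genes passed, 0.457% higher and 0.00761% lower, and no member did. Ddb1 was at -0.40 (SE 0.12, adjusted p = 0.101) and Rad23b at -0.26 (SE 0.11, adjusted p = 0.281). Both kept their sign. With the mitochondrial share as covariate instead, 5.25% of genes passed in the contralateral and 4.07% in the ipsilateral comparison. Ddb1 and Rad23b stayed past the threshold at both sites, and contralateral Cetn2 was at 0.60 (SE 0.25, adjusted p = 0.152). Transcript length also moved with direction. The summed exon length was 6409 bases for Ddb1, 5733 for Rad23b and 1646 for Cetn2. Over all genes, those lower in contralateral embryos had a median length of 5507 bases and those higher 3087, against 4193 for all tested, and in ipsilateral embryos 5325 and 3286. The part of length in these results was not tested.

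**Figure D2:**
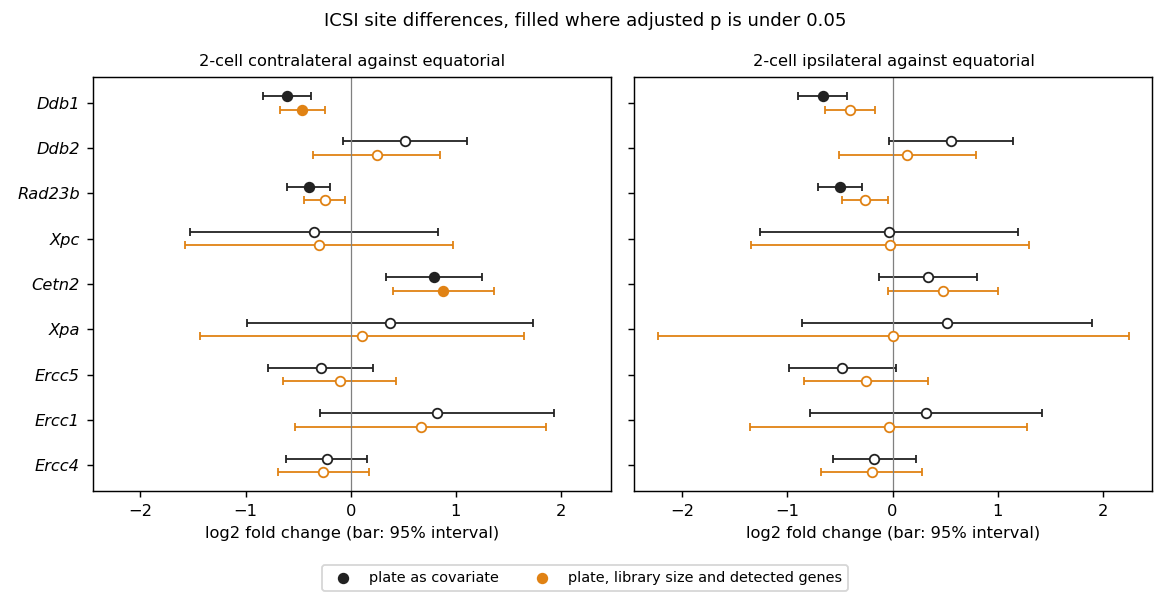
Log2 fold change of each gene in contralateral and ipsilateral against equatorial 2-cell embryos with 95% intervals, with plate as covariate (black) and with library size and detected genes added (orange); filled points passed an adjusted p of 0.05. Ddb1 and Rad23b lie below 0 at both sites in either fit, and filled orange points remain for contralateral Ddb1 and Cetn2.

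The study compared whole 2-cell embryos by an uncorrected Wilcoxon test on TPM added over sisters. For DNA repair genes it also reports uncorrected t tests, which were not run here. The rank test was run as a 2-sided permutation test with 100000 resamples, over 27 tests in 2-cell embryos. In contralateral against equatorial embryos 4 genes were under 0.05: Ddb1 (permutation p = 1e-05, the smallest these resamples can give), Rad23b (0.00018), Cetn2 (0.00684) and Ercc5 (0.0221). In ipsilateral against equatorial embryos they were Ddb1 (permutation p = 2e-05), Rad23b (1e-05), Ddb2 (0.01655) and Ercc5 (0.0378). Between the polar sites Cetn2 was under 0.05 (permutation p = 0.0199). Ercc5 and Ddb2 thus passed this uncorrected test and not the one adjusted over all genes. The rank test was run on the members only, so its share over all genes is not known. In the edgeR fit of the same embryos, 3421 of 13141 genes were under an unadjusted 0.05 in the contralateral comparison. The number was 2576 in the ipsilateral comparison and 555 between the polar sites. Whether the members passed the rank test more often than other genes was not tested.

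Each sister was also fitted alone. These are parts of the counts added above, from the same embryos, so the fits are not independent of the main one. The letters a and b name the one or the other blastomere and carry no order. Over all genes, 7.33% (a) and 6.84% (b) passed in the contralateral comparison, and 3.07% and 1.19% in the ipsilateral one. Ddb1 was lower after polar ICSI in either sister taken alone. In blastomeres a, its median was 208.3 CPM in contralateral, 204.7 in ipsilateral and 363.4 in equatorial embryos, and in blastomeres b 208.9, 230.9 and 318.8. Its differences passed in both (contralateral adjusted p = 0.0016 and 0.0112, ipsilateral 0.00175 and 0.0238). Rad23b passed in each sister in the ipsilateral comparison (adjusted p = 0.0376 and 0.0364) and in neither in the contralateral one (0.0776 and 0.0577), with differences of -0.36 and -0.38. Cetn2 passed in blastomeres b (1.03, adjusted p = 0.0197) and not in blastomeres a (0.51, adjusted p = 0.322), and the difference between sisters was not tested.

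Ddb1, Rad23b, Cetn2, Ercc4 and Ercc5 had counts in both sisters of all 55 pairs. Ddb2 had counts in both sisters of 50 pairs, Xpc and Ercc1 in 32 each and Xpa in 23. Xpa was at 0 in 39 of 110 blastomeres, and Xpc and Ercc1 were at 0 in 27 each. The median absolute log2 ratio of CPM + 1 between sisters was 0.32 for Ddb1 and 0.38 for Rad23b, against 0.89 over 11964 genes with a mean count of at least 10 per pair. It was 0.59 for Ercc4, 0.60 for Cetn2, 0.82 for Ercc5 and 0.87 for Ddb2, and rose to 1.42 for Xpa, 1.89 for Ercc1 and 2.12 for Xpc. Ddb1 and Rad23b had median counts of 655 and 694 per embryo, so their comparison with the 11964 genes was not made at equal counts. The variance of the split between sisters was 11.7 (Xpa) to 32.4 (Ercc5) times the binomial counting variance, with a median of 15.3 over those 11964 genes. By this measure Ddb1 (20.3) and Rad23b (17.6) split more unevenly than that median, as did Ercc1, Ercc4 and Ercc5. Cetn2, Ddb2, Xpc and Xpa lay below it. The reads carried no molecular identifiers, so counting variance understates the technical error. The intraclass correlation of sisters around their site and plate means was 0.39 for Cetn2, 0.33 for Ercc4, 0.28 for Ercc5, 0.21 for Ddb1, 0.14 for Rad23b, 0.13 for Xpa, 0.08 for Ercc1, -0.01 for Ddb2 and -0.05 for Xpc, against a median of 0.08 over the 11964 genes (55 pairs). In the 19 twin pairs it was -0.40 for Cetn2, -0.17 for Ddb1 and -0.11 for Ercc4, and -0.05 to 0.07 for the other 6, against a median of 0.01. The difference between stages was not tested.

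**Figure D3:**
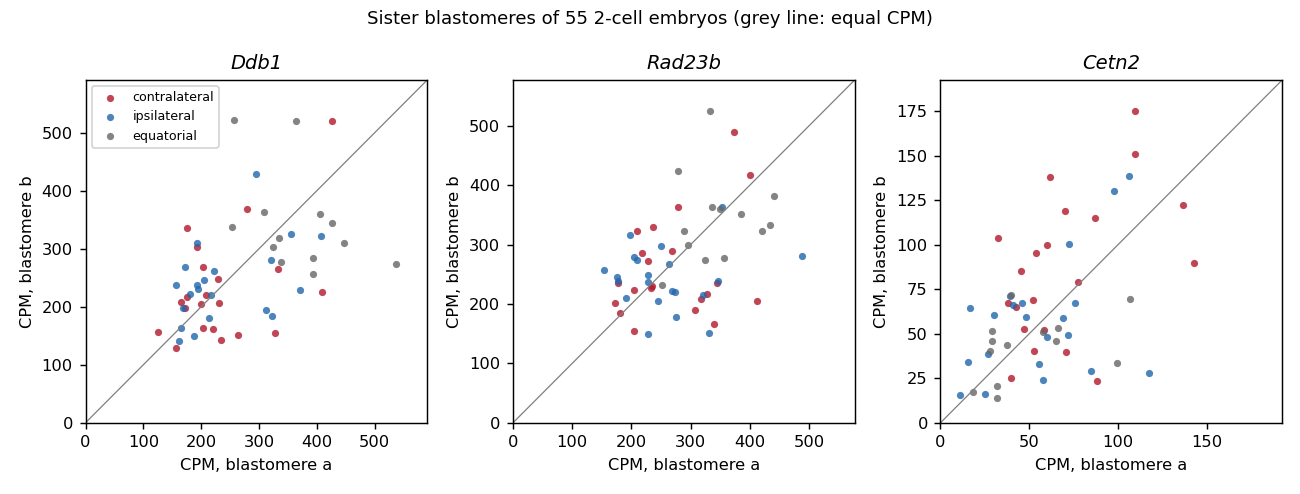
CPM of Ddb1, Rad23b and Cetn2 in blastomere a against blastomere b of 55 2-cell embryos, coloured by ICSI site, with the line of equal CPM in grey. Equatorial embryos lie toward the upper right for Ddb1 and Rad23b, and sisters scatter around the line in each panel.

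Other genes of the pathway were read from lists, against the 13.2% (contralateral) and 6.65% (ipsilateral) of all genes that passed. Of 9 tested genes of TFIIH, the helix-opening complex, 1 rose in contralateral against equatorial embryos: Cdk7, its kinase, by 1.04 on the log2 scale (SE 0.25, adjusted p = 0.00217), with medians of 73.7 and 35.3 CPM. Of 9 recognition and transcription-coupled genes, Cetn3, a centrin like Cetn2 (0.71, SE 0.15, adjusted p = 0.000671), and Elof1, an elongation factor (0.41, SE 0.13, adjusted p = 0.0291), rose. Of 23 RPA and gap-filling genes, Rpa3, the small RPA subunit (0.83, SE 0.17, adjusted p = 0.000519), and Pole4, a subunit of polymerase epsilon (0.19, SE 0.06, adjusted p = 0.0440), rose. Of 11 genes of the Ddb1-Cul4 ligase, 2 rose and 2 fell.

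The ligase genes that fell were Cop1, a ubiquitin ligase (-0.32, adjusted p = 0.00118), and Dcaf1, a substrate receptor (-0.35, adjusted p = 0.0262). The risers were Cul4b, a cullin scaffold (0.25, adjusted p = 0.0394), and Rbx1, the RING subunit (0.24, adjusted p = 0.0451), the latter named after its value was seen. The list medians were 0.24 for TFIIH, -0.13 for recognition, 0.13 for the ligase and -0.06 for RPA and gap filling. In ipsilateral against equatorial embryos, 1 of 9 genes on the recognition and transcription-coupled list rose (Cetn3, 0.64, adjusted p = 0.00498). Cetn3 was listed as a centrin like Cetn2 and is not part of the Xpc complex as described above. Of the 11 ligase genes, Cul4b (0.30, adjusted p = 0.0232) and Dda1, a ligase cofactor (0.28, adjusted p = 0.0269), rose and Cop1 fell (-0.32, adjusted p = 0.00475). No TFIIH or gap-filling gene passed there. With the depth covariates, no gene of these lists passed in the ipsilateral comparison, where 0.464% of all genes did. In the contralateral comparison 9.08% of all genes passed. Of the lists, 1 of 9 TFIIH, 1 of 9 recognition, 2 of 11 ligase and 2 of 23 RPA and gap-filling genes did. These were Cdk7, Cetn3, Rpa3, Pole4, Cop1 and Rbx1, all also called without these covariates.

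The members called in 2-cell embryos were set beside the tested genes with the most similar levels, by Pearson correlation of log2 CPM over the 55 embryos. For Ddb1 they were Bri3 (r = 0.87), Fam241b (0.87) and Bod1 (0.84), and for Rad23b Fam241b (0.84), Bri3 (0.82) and Sap30l (0.81). For Cetn2 they were Sfr1 (0.67), Sycp3 (0.66) and Ssb (0.66). Among the members, Ddb1 and Rad23b correlated at 0.68, Ddb1 and Cetn2 at -0.50, and Ddb1 and Ddb2 at -0.49. All points share site, plate and depth, so these values describe the embryos only.

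In twin blastocysts, no member passed the test between ICSI sites. The count was 0 of 9 members and 0% of 10995 genes in each comparison (edgeR), with 728, 426 and 754 genes under an unadjusted p of 0.05 for contralateral against equatorial, ipsilateral against equatorial and contralateral against ipsilateral. DESeq2 called 0 members and 6, 1 and 0 genes. Ddb1 ranged from 224.1 to 317.8 CPM in 6 contralateral, from 248.6 to 309.5 in 7 ipsilateral and from 235.6 to 319.0 in 6 equatorial twin pairs, with medians of 283.4, 277.7 and 260.9. These ranges overlapped nearly whole. Rad23b had medians of 121.3, 171.7 and 139.7 CPM, and Cetn2 79.3, 62.8 and 64.2. Cetn2 was the member under an unadjusted 0.05 in contralateral against equatorial twins (0.40, SE 0.17, adjusted p = 0.704, edgeR). Rad23b was so in contralateral against ipsilateral twins (-0.41, SE 0.16, adjusted p = 0.700).

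In intact blastocysts, again no member passed between sites. The count was 0 of 8 members tested and 0% of 9165 genes in each comparison (edgeR), with 629, 338 and 522 genes under an unadjusted 0.05 and 1, 0 and 0 genes called by DESeq2. Ddb2 had too few counts to be tested and was at 0 in 16 of 31 blastocysts. Ddb1 ranged from 206.3 to 709.1 CPM in contralateral, 248.9 to 557.9 in ipsilateral and 263.7 to 729.2 in equatorial blastocysts, with medians of 427.8, 299.9 and 329.5. Rad23b had medians of 290.9, 211.7 and 239.0 CPM. Cetn2 had medians of 71.7, 34.6 and 57.1 CPM, and its contralateral to ipsilateral difference of 0.92 (SE 0.33) had an unadjusted p of 0.00777 and an adjusted p of 0.822 (edgeR). Rad23b in the same comparison (0.54, SE 0.24) and Ercc5 in contralateral against equatorial blastocysts (0.85, SE 0.42) were also under an unadjusted 0.05, with adjusted p-values of 0.836 and 0.720.

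**Figure D4:**
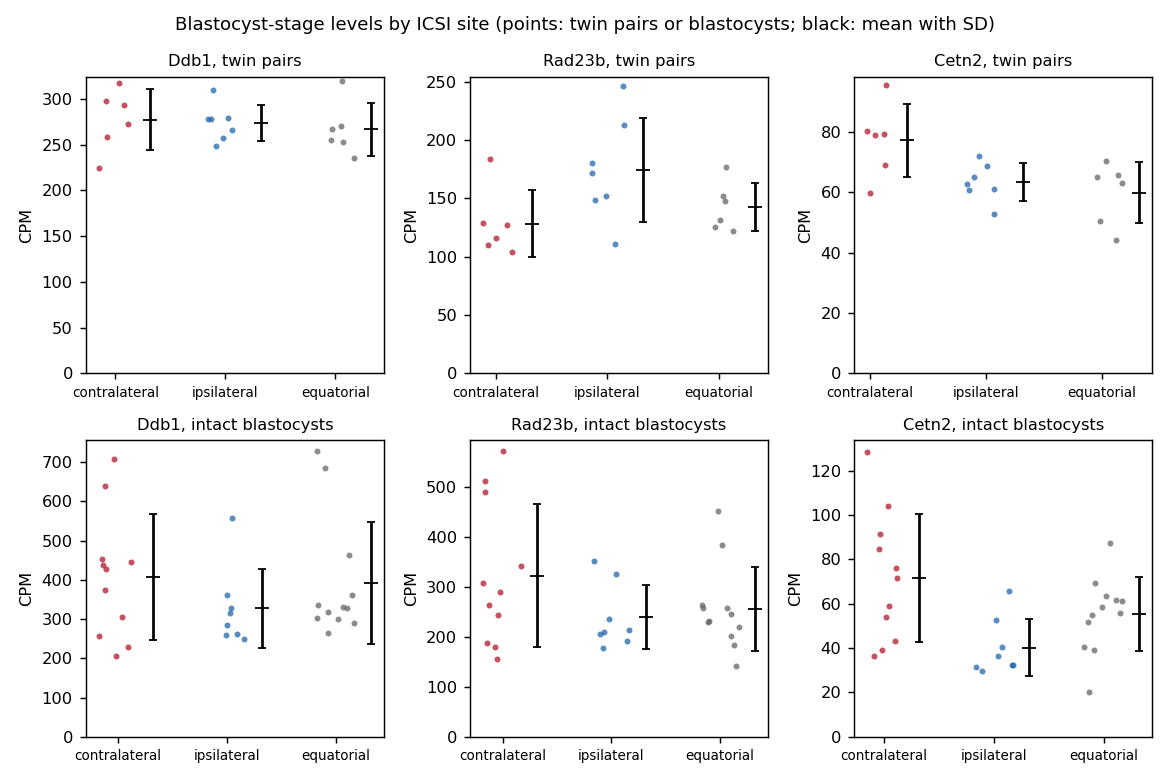
CPM of Ddb1, Rad23b and Cetn2 in 19 twin pairs (top) and 31 intact blastocysts (bottom) by ICSI site, with mean and SD in black. The sites overlap in all 6 panels, and intact blastocysts spread more widely than twin pairs for Ddb1.

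Whether the site difference itself changed from 2-cell embryos to twins was tested as an interaction over 16523 genes, with 0 of 9 members passing at either site against 0.188% of genes (contralateral, 0.139% higher and 0.0484% lower) and 0.23% (ipsilateral, 0.127% higher and 0.103% lower). For Ddb1 the 2-cell minus twin difference was -0.67 in both comparisons (SE 0.21 and 0.20, adjusted p = 0.131 and 0.134, edgeR). For Rad23b it was -0.25 (SE 0.20, adjusted p = 0.810) in the contralateral and -0.76 (SE 0.20, adjusted p = 0.0739) in the ipsilateral comparison. For Cetn2 it was 0.42 and 0.29, with SEs of 0.39 and 0.38. Of the 9 members, Ddb1 was under an unadjusted 0.05 at both sites and Rad23b at the ipsilateral site. Of all 16523 genes, 1677 were so in the contralateral and 1588 in the ipsilateral comparison.

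Twin pairs and intact blastocysts differed in 4 of 9 members, where 40.7% of 10689 genes did, 20.1% higher and 20.6% lower in twins. Ddb1 was 272.6 ± 26.1 CPM (SD, n = 19) in twin pairs and 380.8 ± 144.2 CPM (SD, n = 31) in intact blastocysts, a log2 difference of -0.54 (SE 0.13, adjusted p = 0.000569, edgeR). Rad23b was 150.0 ± 37.7 and 275.5 ± 108.04 CPM, with a difference of -0.96 (SE 0.14, adjusted p = 4.96e-08). Ercc5 was 30.8 ± 9.2 and 75.5 ± 62.7 CPM, with a difference of -1.34 (SE 0.26, adjusted p = 2.64e-05). Xpa was higher in twins, with 22.1 ± 8.94 against 10.3 ± 8.34 CPM, a difference of 1.08 on the log2 scale (SE 0.33, adjusted p = 0.00724). Cetn2, Ddb2, Xpc, Ercc1 and Ercc4 did not pass, with differences of 0.22 to 0.72. In such whole-embryo samples, fewer cells of a type and less RNA per cell cannot be told apart. Marker lists moved as well: 3 of 4 epiblast markers were higher in twins (median log2 difference 0.77), 1 of 6 trophectoderm markers was higher and 3 were lower (-0.40), and 1 of 4 primitive endoderm markers was higher (0.05), against 0.00 for all genes. Depth also differed, with 1676976 to 3095134 counts per twin pair, which adds 2 libraries, and 234099 to 1254428 per intact blastocyst. The part of the markers and of depth in these differences was not tested beyond the next value. With only the intact libraries over 400000 counts, 44.6% of 10938 genes passed. The same 4 members passed again, and Ddb1 was at -0.38 (edgeR adjusted p = 0.00103).

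Between 2-cell embryos and intact blastocysts, Ddb2 and Ercc4 showed the widest gap of the members. Of the 9, 4 were higher and 1 lower in 2-cell embryos, where 75.3% of 15682 genes passed (45.9% higher and 29.4% lower) and the median log2 difference of all genes was 0.54. Ercc4 was 118.7 ± 46.7 CPM in 55 2-cell embryos and 14.7 ± 12.7 in 31 blastocysts (log2 difference 3.40, SE 0.28, adjusted p = 5.67e-20, edgeR). Ddb2 was 31.1 ± 14.2 and 4.78 ± 7.52 CPM (3.15, SE 0.45, adjusted p = 1.11e-09). Both differences lay far above the shift of all genes. Ercc5 (0.87, SE 0.28, adjusted p = 0.00393, edgeR) stood a little above that shift and Rad23b (0.38, SE 0.13, adjusted p = 0.00655) below it. These 2 places hold for this fit only, as the shift ran from -0.62 (DESeq2) to 0.61 (intact libraries over 400000 counts). Rad23b was 277.6 ± 67.7 CPM in 2-cell embryos and 275.5 ± 108.04 CPM in intact blastocysts. Its means thus lay close together in CPM, without the scaling and plate term of the fit.

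Ercc1, the partner of Ercc4, went the other way, with 13.8 ± 12.7 CPM in 2-cell embryos and 41.9 ± 34.1 in intact blastocysts (-1.39, SE 0.56, adjusted p = 0.0222). Xpc (-1.15, SE 0.58, adjusted p = 0.0668), Xpa and Cetn2 did not pass, and neither did Ddb1, with 262.6 ± 80.4 against 380.8 ± 144.2 CPM and a fitted difference of 0.05 (SE 0.14, adjusted p = 0.759, edgeR). For Ddb1 the CPM means and the fitted difference thus pointed in opposite directions. The sign of the Ddb1 difference turned on plate 2 alone (-0.07) and with other scalings. With intact libraries over 400000 counts it passed (0.28, edgeR adjusted p = 0.0384). In that last setting 75.5% of all genes passed, and their median shift of 0.61 was larger than the Ddb1 difference. In 2-cell embryos the Ercc4 transcript was thus the more abundant of the dimer per length (58.5 against 14.7 TPM), and in intact blastocysts Ercc1 was (38.8 ± 31.01 against 6.32 ± 5.48 TPM). Blastocysts were counted with plate 2 because the study sequenced them as single-end reads, while their column names give no plate. On plate 2 alone, so defined, 73.2% of 14480 genes passed. The shift of all genes was 0.08 there, and Ddb2 and Ercc4 were at 3.29 and 3.43. Ercc1 and Rad23b no longer passed there (edgeR adjusted p = 0.0632 and 0.148), while Xpc did (-1.55, adjusted p = 0.0397). Exons of genes on the opposite strand overlap Ddb2 (Acp2, 23.8% of its exon length), Ddb1 (Tkfc, 5.12%), Xpa (Ncbp1, 4.07%) and Ercc1 (Cd3eap, 3.41%), and counting ignored strand, so reads in these stretches cannot be assigned to one gene.

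**Figure D5:**
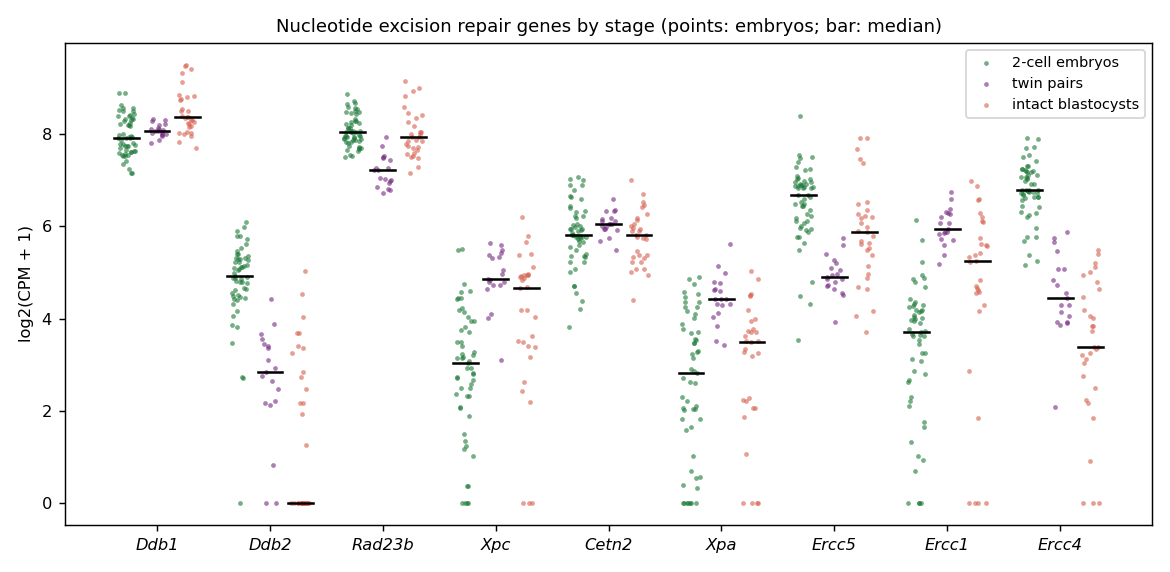
Log2(CPM + 1) of the 9 genes in 55 2-cell embryos, 19 twin pairs and 31 intact blastocysts (points), with the median as a bar. Ddb2 and Ercc4 are highest in 2-cell embryos, Ercc1 is lowest there, and the ranges of Ddb1 and Cetn2 overlap across the 3 stages.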

How the data were processed

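Single-blastomere and single-blastocyst cDNA was made with the SMART-Seq Single Cell Kit and sequenced after Nextera XT library preparation. Per the labels and the study's methods, the authors trimmed reads with Trimmomatic (version 039) and checked them with FastQC 0.12.1. They mapped them with STAR 2.7.10b in its Smart-seq mode, without strand, to GRCm38 with the M23 gene annotation. Plate 1 was sequenced as paired-end reads, of which the authors kept the first read cut to 100 bases, and plate 2 as single-end reads, so plate and read layout cannot be told apart. The deposited values are raw read counts per gene, with no molecular identifiers. Of 219 samples in the labels, 194 had a column, and 25 blastomeres were not analysed here. Most of these 25 were equatorial. The labels list the same number of 2-cell pairs for each site, and 21 contralateral, 21 ipsilateral and 13 equatorial pairs were kept. The part of this uneven loss in the site differences was not tested.

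Pairs were kept when both sisters had at least 9500 detected genes (55 of 62), and their counts were added. Counts were tested with edgeR 4.0.16 (TMM, filterByExpr, robust quasi-likelihood, Benjamini-Hochberg over all genes, threshold 0.05), with plate as a covariate in 2-cell fits. SEs are the log2 fold change divided by the root of F, and 95% intervals are 1.96 SEs either way. TPM used exon lengths from GENCODE M21. Rank tests were permutation tests (scipy 1.17.1; exact in twins). Fits were tested on simulated data. The members and gene lists were chosen with earlier results of these data known. All 9 members are named. Other pathway genes are named when called in a 2-cell comparison, at most 3 per list by adjusted p. Separate cultures are not given in the labels beyond the embryo, so p-values measure the spread between embryos. Alternatives were DESeq2 1.42.0, RLE scaling, no filter, depth covariates, plate or sister subsets, all 62 pairs, the 48 pairs also under the study's mitochondrial limit read as a fraction of 0.02 (not applied to the 55), and single embryos left out. The mitochondrial share, either depth measure alone and intact libraries over 400000 counts were added after the data were seen.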

Additional observations from a re-analysis of the deposited data

Results flagged for a closer look

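Among 36 groups of 6 to 8 samples, 6 held a value that stood apart from the rest by Dixon's test at the 95% level. Chance alone gives about 1 in 20 groups when groups are independent and values normal. These groups are 9 genes read in the same samples, so whether 6 exceeds chance was not tested. In 8 ipsilateral intact blastocysts, 1 blastocyst had the highest Ddb1 (557.9 CPM, next 361.7), the highest Ercc5 (176.1 CPM, next 88.2) and the highest Xpc (73.2 CPM, next 29.4). The 8 libraries of that group held 531176 to 836680 counts. Another ipsilateral intact blastocyst had the highest Ercc1 (95.5 CPM, next 52.4). In 6 contralateral twin pairs, 1 pair had the lowest Ercc5 (14.1 CPM, next 25.7) and another the highest Rad23b (183.4 CPM, next 129.3). The part of depth in these values was not tested.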

How the results depend on the processing

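Of the alternatives run on counts of members called and on the sister split, 72 kept the reported result and 4 did not. A count was kept within 1.5 times its reported value, and the split within its SD over the 9 genes. By this rule a fall from 3 called members to 2 was kept. The contralateral count fell so with both depth covariates, detected genes alone, the mitochondrial share and blastomeres b alone. Between the polar sites, and between sites in twins and intact blastocysts, every alternative gave 0 as reported. In contralateral against equatorial 2-cell embryos, blastomeres a alone gave 1 called member in place of 3. In the ipsilateral comparison, 2 called members became 0 with both depth covariates, 0 with detected genes alone and 1 with library size alone (Rad23b was lost, edgeR adjusted p = 0.0719). Leaving out each embryo in turn gave 3 to 3 members in the contralateral, 2 to 2 in the ipsilateral and 0 to 0 in the polar, twin and intact site comparisons. Single genes were followed for all 9 members in contralateral against equatorial embryos, twin against intact blastocysts and 2-cell embryos against intact blastocysts. The ipsilateral comparison left out Xpc, and the polar one followed Ddb1, Rad23b and Cetn2. Between sites in blastocysts, only members under an unadjusted 0.05 were followed. Among these, 335 values kept direction and side of the threshold, 13 lost a call, 4 gained one and 10 changed sign, none of the last being a called gene. Those 10 were Ercc1 in ipsilateral against equatorial embryos (-0.035 with depth covariates, -0.0046 with library size alone), Ddb1 between the polar sites (-0.056 with depth covariates, -0.0070 with detected genes alone and -0.055 with library size alone), Ddb2 in twin against intact blastocysts (-0.040 with blastocysts b alone) and Ddb1 in 2-cell embryos against intact blastocysts (-0.046 by DESeq2, -0.050 with RLE scaling, -0.024 without a filter and -0.073 on plate 2 alone). Leaving out 1 embryo turned Xpc in contralateral against equatorial embryos (range -0.68 to 0.042, turned without 1 equatorial embryo) and Ddb1 between the polar sites (-0.0070 to 0.10, turned without 1 contralateral embryo). Among values that were not called, those of ipsilateral against equatorial Ercc1 (0.15 to 0.71) and Ercc4 (-0.27 to -0.07), contralateral against equatorial Xpa (0.23 to 0.59), Ercc4 (-0.28 to -0.12) and Ercc5 (-0.46 to -0.22), and intact Ercc5 in contralateral against equatorial blastocysts (0.61 to 1.39) moved by over 1.5 times without 1 embryo. Ercc4 passed in twin against intact blastocysts with blastocysts a alone (1.07, edgeR adjusted p = 0.0204), where 35.8% of all genes passed. In 2-cell embryos against intact blastocysts, Ddb1 passed with intact libraries over 400000 counts (0.28, adjusted p = 0.0384) and Xpc by DESeq2 (-1.21, adjusted p = 0.0265). In these settings 75.5% and 60.9% of all genes passed, with median shifts of 0.61 and -0.62. The cause was not tested for any of these.

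The number of all genes called in the contralateral comparison was 1733, against 690 with the mitochondrial share as covariate, 1104 in the 48 pairs under the mitochondrial limit, 823 and 775 in blastomeres a and b alone, 1121 with detected genes alone and 3930 without a filter on low counts. In the ipsilateral comparison it was 874, against 61 with both depth covariates, 84 with detected genes alone, 184 with library size alone, 535 with the mitochondrial share, 345 and 135 in blastomeres a and b alone, 1321 by DESeq2 and 2603 without a filter. Between the polar sites it was 0, against 1577 without a filter. In 2-cell embryos against intact blastocysts the median shift of all genes was 0.54, against 0.49 with RLE scaling. It was 0.61 with intact libraries over 400000 counts, 0.26 without a filter, 0.08 on plate 2 alone and -0.62 by DESeq2. The median split of member counts between sisters was 17.2 times the counting variance (17.1 in 48 pairs, 17.1 with TMM-scaled totals). No paired analysis was possible because embryo numbers are unique to an embryo and shared by no 2 groups. Depth limits Xpc, Xpa and Ercc1, whose counts per 2-cell embryo had medians of 19, 18 and 33, and Ddb2 in intact blastocysts.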
